A study of Mus musculus with 19 samples.

Results

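Integrins are the receptors through which cells hold on to extracellular matrix, and focal adhesions are the protein assemblies that tie bound integrins to the actin cytoskeleton. The genes described here were listed by name: 12 integrin alpha subunits, 8 beta subunits and 16 focal adhesion components, 36 genes of the 51707 to which reads could be summed. They were measured in 19 RNA-seq libraries of cells sorted from pancreatic ductal adenocarcinomas (PDAC), which had grown in C57BL/6J mice from orthotopically transplanted T-LOH KPC tumour organoids. The mice were given neratinib, an irreversible inhibitor of ERBB receptor tyrosine kinases, or vehicle, in both arms for 2 weeks. The groups were PDPN+ cells, called cancer-associated fibroblasts (CAFs) in the labels, from neratinib (n = 4) and vehicle mice (n = 4), and EpCAM+ cells, called epithelial cells, from neratinib (n = 5) and vehicle mice (n = 6). All tumours came from the same kind of organoid, so EpCAM+ cells stand for transplanted tumour epithelium and PDPN+ cells for stroma of the recipient mice, as far as the sort separated them. Each label holds a 5-digit number, here taken to name the mouse, which is an inference. On that reading 11 mice were used, 8 of them gave libraries of both populations, and p-values rest on the spread between mice of a group. The organoid line, the age of the mice and whether organoids came from 1 or several donors are not stated in the labels.

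An integrin is a pair of an alpha and a beta chain, and the pair sets which ligands it binds. The beta1 chain pairs with collagen receptors (alpha1, alpha2, alpha10, alpha11), laminin receptors (alpha3, alpha6, alpha7) and receptors for fibronectin and related proteins (alpha4, alpha5, alpha8, alphav, alpha9). The alphav chain pairs with beta1, beta3, beta5, beta6 or beta8 and binds proteins that carry an Arg-Gly-Asp (RGD) motif, among them the latent forms of TGF-beta. Alpha6 with beta4 forms the core of hemidesmosomes, which anchor epithelium to its basement membrane, and beta2 and beta7 are chains of leukocytes. Talin and kindlin bind the tails of beta chains and bring the receptor into its active state. The complex of integrin-linked kinase, PINCH and parvin, together with vinculin, zyxin and tensin, then joins the receptor to actin, while focal adhesion kinase, paxillin and p130Cas relay signals.

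Reads summed over genes came to 30.3 to 48.1 M per PDPN+ library and 39.4 to 75.4 M per EpCAM+ library, and mitochondrial genes took 6.14 to 19.4% of them in PDPN+ and 2.15 to 2.89% in EpCAM+ libraries. Levels below are counts-per-million (CPM) after TMM scaling of all 19 libraries unless transcripts-per-million (TPM), which are per length, are named. A reading of 0 allows up to 3 reads, at most 0.110 CPM in any library, and such limits cover counting error only. The 9 fibroblast marker genes summed to 10680 to 16490 TPM in PDPN+ libraries, against 13.0 to 127 TPM in EpCAM+ libraries, and all 9 were called higher in PDPN+ cells. The 9 epithelial marker genes summed to 286 to 1203 TPM in PDPN+ libraries, against 18020 to 24660 TPM in EpCAM+ libraries, and all 9 were called lower. PDPN+ libraries also carried genes of other cells: 8 mesothelial marker genes summed to 504 to 2454 TPM in PDPN+ libraries, against 4707 to 7688 TPM in EpCAM+ libraries. That list holds Krt19, which is also in the epithelial list and alone stood at 118 to 564 TPM in PDPN+ and 4052 to 6838 TPM in EpCAM+ libraries, while Msln stood at 114 to 664 TPM in PDPN+ and 572 to 1012 TPM in EpCAM+ libraries. The 6 other mesothelial genes were all called higher in PDPN+ cells, with log2 differences from 4.44 (Nkain4) to 9.02 (Wt1). The 12 leukocyte marker genes summed to 761 to 3062 TPM in PDPN+ libraries, against 267 to 649.7 TPM in EpCAM+ libraries. Of them Cd74 alone gave 515 to 2691 TPM in PDPN+ and 14.4 to 62.3 TPM in EpCAM+ libraries, and Ptprc 0 to 2.75 TPM in PDPN+ and 1.35 to 4.58 TPM in EpCAM+ libraries. Since these are bulk samples, fewer cells of a type and less RNA per cell cannot be told apart.

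Some libraries stood apart from the rest of their group. Libraries are called by their labels, in which caf marks PDPN+ and epi EpCAM+ cells, N neratinib and V vehicle. Along the leading principal component, computed within each population, the PDPN+ vehicle libraries 1A_53175_V_caf and 4A_53188_V_caf scored -210.1 and -180.2, and the other 6 PDPN+ libraries scored 43.8 to 86.3. These vehicle libraries had 12057 and 11876 genes with at least 10 reads, against 13642 to 18552 in the other 6. Their reads summed over genes came to 36.9 and 36.7 M. The part of this lower detection in their near-zero member values was not tested. The EpCAM+ neratinib library 7B_53178_N_epi and the EpCAM+ vehicle libraries 1B_53175_V_epi and 2B_53176_V_epi scored 85.5, 94.4 and 93.0, and the other 8 EpCAM+ libraries scored -49.2 to -18.4. In these 3 libraries member genes of higher GC content tended to be lower. Across 30 members, the Spearman correlation of the deviation of a gene's level with its GC content was -0.58, -0.55 and -0.45. It was -0.17 to 0.31 in the other 8, as a description across genes, which share each library. Over all 12946 genes the same correlation was -0.38, -0.19 and -0.29 in these 3 libraries, against -0.02 to 0.33 in the other 8, so it was present beyond the members. Paxillin (Pxn), for example, stood at 15.3, 19.9 and 20.7 CPM in these 3 libraries and at 119 to 194 CPM in the other 8. Bcar1 stood at 28.9, 37.9 and 32.6 against 120.0 to 176 CPM, Itgb4 at 40.9, 51.3 and 41.0 against 151 to 211 CPM, Itga5 at 3.16, 3.82 and 5.81 against 18.4 to 74.3 CPM and Tln1 at 26.7, 34.95 and 30.7 against 129.6 to 187 CPM. Itgb1 went the other way, at 398, 454 and 439 against 108 to 223 CPM. Zyx, at 56.6% GC, was not low, at 30.6, 32.6 and 30.6 against 11.3 to 48.3 CPM. Deviations also correlated with transcript length, over all 12946 genes, at -0.21, -0.27 and -0.21. In the other 8 libraries this correlation was -0.04 to 0.31. The parts of GC content and transcript length in the results were not tested. Calls that change without these libraries are given with their genes.

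**Figure D1:**
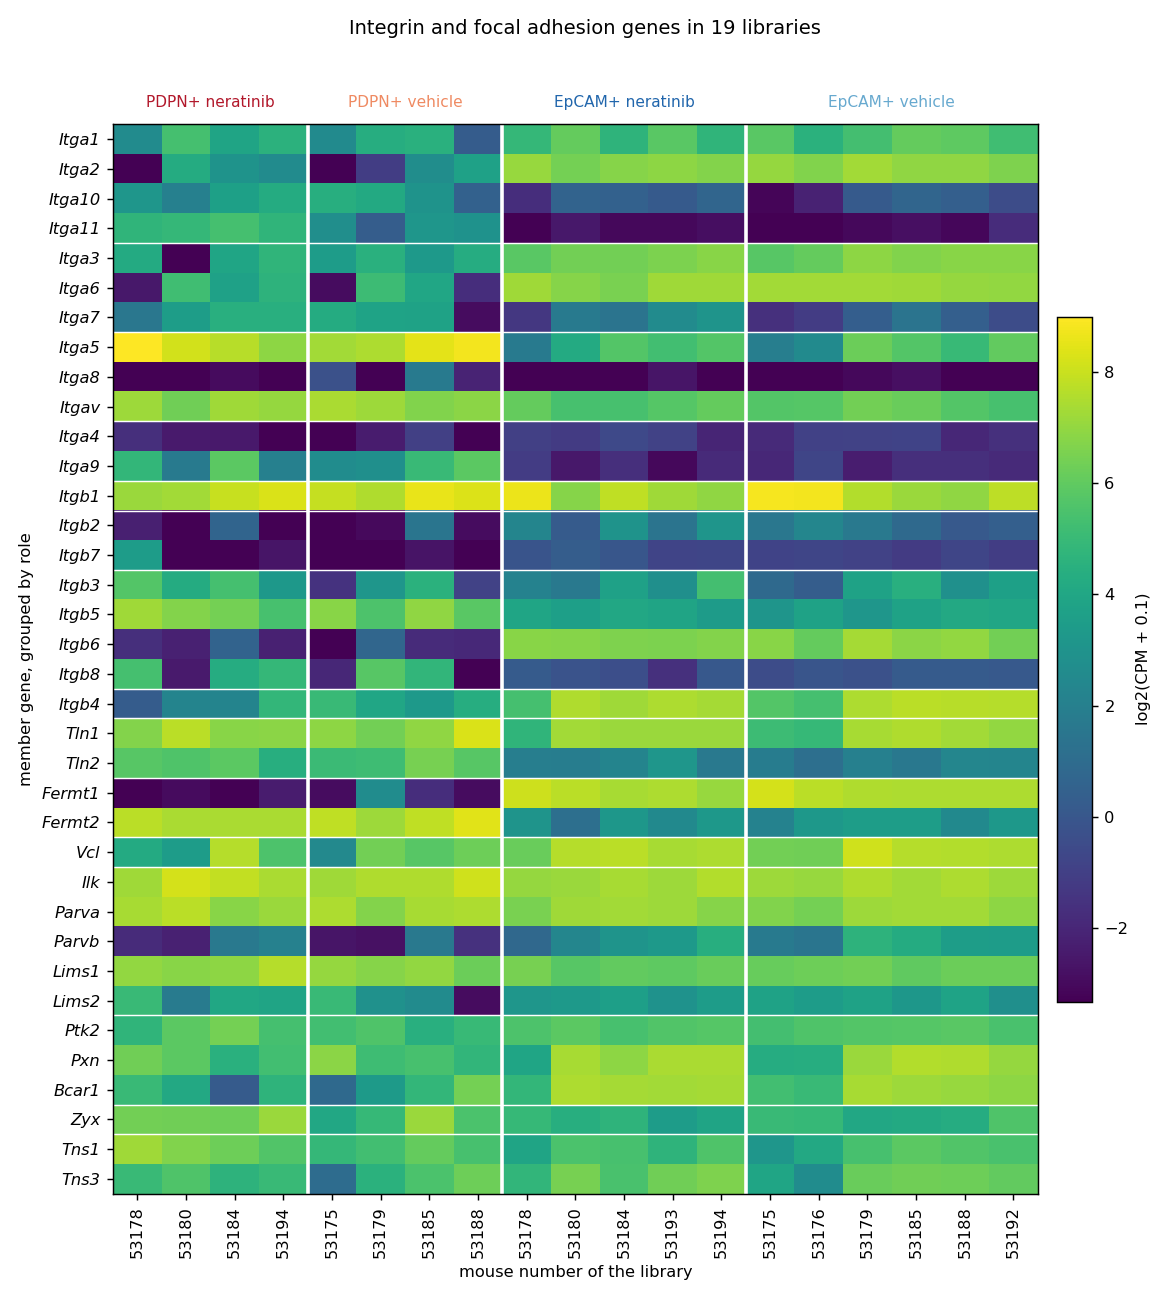
Level of each of the 36 member genes (rows, grouped by role) in each of the 19 libraries (columns, named by mouse number), as log2(CPM + 0.1) on a colour scale. Fermt1 and Itgb6 are bright in all 11 EpCAM+ libraries and darker in the 8 PDPN+ libraries. Fermt2, Itga5 and Itgb5 are brighter in the PDPN+ libraries. In EpCAM+ libraries these genes are at intermediate levels, with medians of 9.06, 39.1 and 13.8 CPM.

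PDPN+ cells had more RNA of the fibrillar collagen receptor chain Itga11, the fibronectin receptor chain Itga5, the vitronectin receptor chain Itgb5, kindlin-2 (Fermt2) and talin-2 (Tln2) than EpCAM+ cells, and less of the collagen receptor chain Itga2, the epithelial chains Itgb6 and Itgb4 and kindlin-1 (Fermt1). Of 35 members tested, 14 were higher and 10 lower in PDPN+ cells, and 11 did not pass, with edgeR's quasi-likelihood test at an adjusted p under 0.05. Over all genes tested, 49.3% were called, 24.3% higher and 25.0% lower, so the shares of members, 14 and 10 of 35, are to be read against that background. The median log2 difference was 0.30 over the members and -0.13 over all genes. Members called in opposite directions occurred within the collagen-binding alpha chains, the laminin-binding alpha chains, the alphav-partner beta chains, the kindlins and the complex of integrin-linked kinase, PINCH and parvin. Itga8 (alpha8) was not tested, at 0, 0, 0.0270 and 0 CPM in PDPN+ neratinib and 0.726, 0, 3.17 and 0.136 CPM in PDPN+ vehicle libraries, and at 0 to 0.0625 CPM in EpCAM+ libraries. The balance of directions depends on scaling: with limma on log2(TPM + 1), where the median difference of all genes lay 0.537 lower, 10 members were higher and 13 lower (43.5% of calls higher, against 58.3% in edgeR). The groups did not overlap at all for 12 members, 6 higher and 6 lower, of the 35, against 19.1% of all genes tested (7.52% higher and 11.6% lower).

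**Figure D2:**
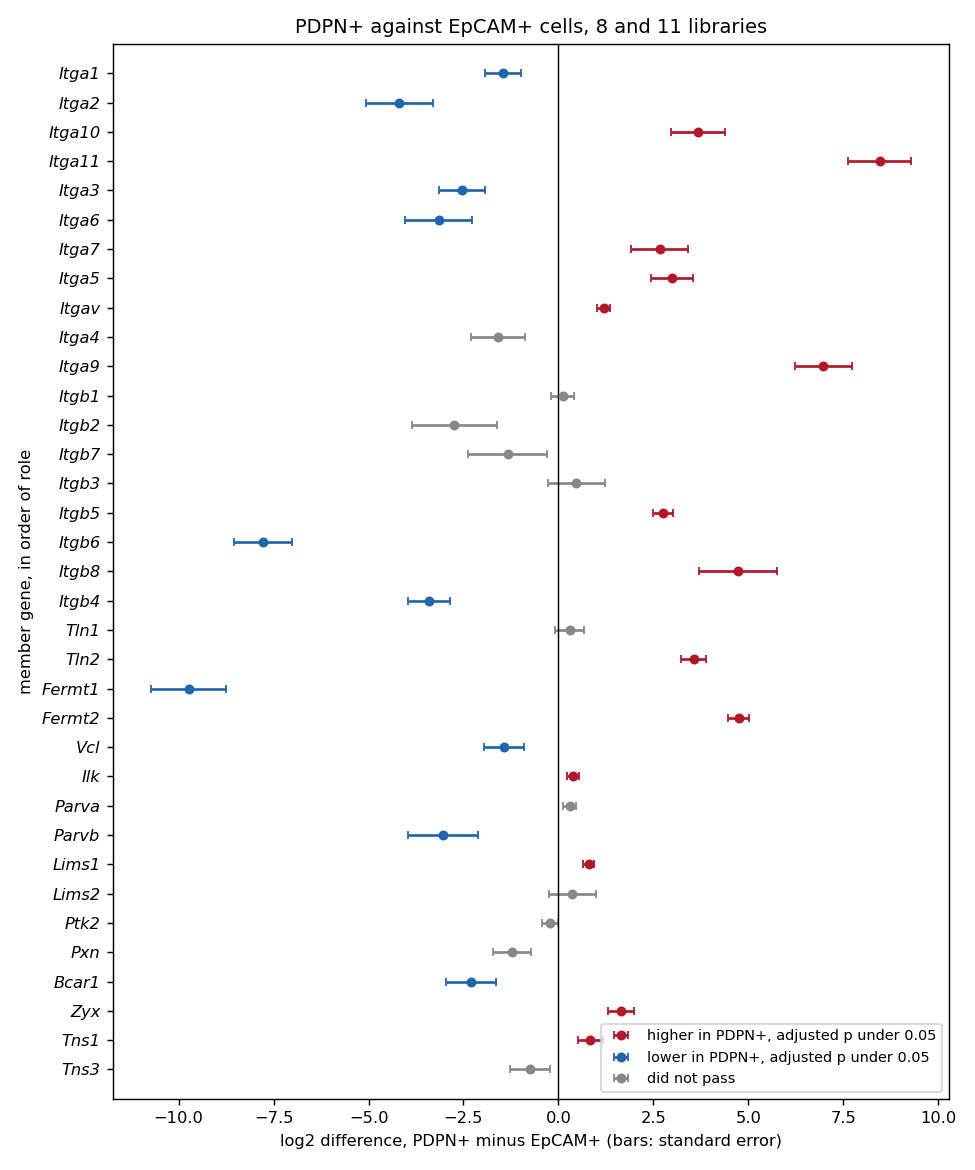
Log2 difference of each tested member between PDPN+ and EpCAM+ cells with its standard error, in order of role (14 higher in red, 10 lower in blue, 11 that did not pass in grey). The differences run from -9.74 (Fermt1) to 8.46 (Itga11).

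Among the 4 collagen-binding alpha chains, 2 were higher and 2 lower. Itga11 (ENSMUSG00000032243), the alpha11 chain that fibroblasts use to bind fibrillar collagen, ranged from 1.13 to 41.2 CPM (median 17.6) in PDPN+ libraries, against 0 to 0.193 CPM (median 0.0199) in EpCAM+ libraries. All PDPN+ libraries lay above all EpCAM+ libraries (log2 difference 8.46, SE 0.84, edgeR adjusted p = 1.55e-07). Itga10, the alpha10 chain of a cartilage collagen receptor, ranged from 1.32 to 21.2 CPM (median 10.9) in PDPN+ libraries, against 0.0125 to 1.52 CPM (median 1.04) in EpCAM+ libraries (log2 difference 3.68), and the ranges overlapped at the PDPN+ vehicle library 4A_53188_V_caf. Itga2, the alpha2 chain that binds collagen on epithelium and platelets, ranged from 0 to 19.1 CPM (median 6.18) in PDPN+ libraries, against 84.6 to 159 CPM (median 121) in EpCAM+ libraries. It was lower in every PDPN+ library (log2 difference -4.19). Itga1, the alpha1 chain that binds collagen IV, ranged from 1.09 to 40.8 CPM (median 17.4) in PDPN+ libraries, against 23.7 to 69.0 CPM (median 39.7) in EpCAM+ libraries, with overlapping ranges (log2 difference -1.46), and its adjusted p was 0.101 with limma voom.

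Of the laminin-binding alpha chains 2 were lower and 1 higher in PDPN+ cells. Itga6 (ENSMUSG00000027111), the alpha6 chain of the laminin receptors alpha6-beta1 and alpha6-beta4, ranged from 0.0316 to 37.8 CPM (median 14.4) in PDPN+ libraries, against 92.0 to 159 CPM (median 151) in EpCAM+ libraries. The groups did not overlap (log2 difference -3.15, SE 0.89, edgeR adjusted p = 0.00623), and 3 PDPN+ libraries, 6A_53178_N_caf, 1A_53175_V_caf and 4A_53188_V_caf, were at 0.0731, 0.0316 and 0.204 CPM. The call was lost in vehicle libraries only (-3.47, edgeR adjusted p = 0.0675) and in neratinib libraries only (-2.77, edgeR adjusted p = 0.0633). Itga3, the alpha3 chain that binds laminin-332 in epithelium, ranged from 0 to 27.0 CPM (median 16.6) in PDPN+ libraries, against 54.9 to 118 CPM (median 94.3) in EpCAM+ libraries, also without overlap (log2 difference -2.54), but did not pass in neratinib libraries only (-2.49, edgeR adjusted p = 0.121). Itga7, the alpha7 chain best known from muscle, ranged from 0.0339 to 22.0 CPM (median 13.7) in PDPN+ libraries, against 0.226 to 8.24 CPM (median 1.23) in EpCAM+ libraries, and was higher (log2 difference 2.67). Its level in the PDPN+ vehicle library 4A_53188_V_caf was the lowest of all 19 libraries. With the mouse number as a block the adjusted p of Itga7 was 0.0883.

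Itga6 is made in 2 forms with different cytoplasmic ends, alpha6A and alpha6B, which share 24 coding exons in GENCODE M21 and differ in the last. The coding ends of the annotated transcripts Itga6-201 (3219 coding bases) and Itga6-202 (3273 coding bases) are shown because the coding sequences differ only there. They lie on the plus strand at chr2:71853534-71853641 and chr2:71855854-71856015 of GRCm38, and the capitals mark the stop codon:
Itga6-201: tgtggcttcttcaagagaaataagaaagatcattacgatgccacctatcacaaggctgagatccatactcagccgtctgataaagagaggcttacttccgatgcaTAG
Itga6-202: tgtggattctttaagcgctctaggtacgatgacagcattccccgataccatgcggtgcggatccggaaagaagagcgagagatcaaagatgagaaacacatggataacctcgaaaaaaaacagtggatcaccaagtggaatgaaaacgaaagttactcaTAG
Of the summed TPM of these 2 transcripts, Itga6-201 held 91.5, 87.7, 88.6, 72.2 and 86.9% in the 5 EpCAM+ neratinib libraries, against 83.0 to 92.4% (median 83.3%) in the 6 EpCAM+ vehicle libraries, and the treatments overlapped. In the 5 PDPN+ libraries with at least 1 TPM of the pair it held 98.1 to 100%, at 1.16 to 3.34 TPM of Itga6-201. So the shorter coding end was the more abundant of the pair in every library that could be read. These shares are Salmon's estimates and were not tested, and the non-coding transcript Itga6-203 of 2721 bases had more TPM than either in EpCAM+ cells (median 38.3, against 19.9 of Itga6-201 and 3.72 of Itga6-202).

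Both tested RGD-binding alpha chains were higher in PDPN+ cells. Itga5 (ENSMUSG00000000555), the alpha5 chain of the classical fibronectin receptor, ranged from 119 to 532 CPM (median 246) in PDPN+ libraries, against 3.16 to 74.3 CPM (median 39.1) in EpCAM+ libraries. Every PDPN+ library lay above every EpCAM+ library (log2 difference 3.00, SE 0.55, edgeR adjusted p = 1.89e-04), and the largest value was that of the neratinib library 6A_53178_N_caf. Itgav (ENSMUSG00000027087), the alphav chain that the beta3, beta5, beta6 and beta8 chains share, ranged from 79.0 to 172 CPM (median 139) in PDPN+ libraries, against 42.0 to 83.9 CPM (median 53.3) in EpCAM+ libraries. Its difference was smaller (log2 difference 1.19, adjusted p = 2.42e-05), and the PDPN+ neratinib library 7A_53180_N_caf, at 79.0 CPM, lay below the EpCAM+ vehicle library 3B_53179_V_epi, at 83.9 CPM. In the related alpha4/alpha9 pair, Itga9, the alpha9 chain that binds tenascin-C, ranged from 3.29 to 59.6 CPM (median 17.5) in PDPN+ libraries, against 0.0208 to 0.488 CPM (median 0.176) in EpCAM+ libraries, without overlap (log2 difference 6.98, SE 0.76, edgeR adjusted p = 4.74e-07). Itga4, the alpha4 chain of leukocytes, was at or under 0.406 CPM in PDPN+ and 0.553 CPM in EpCAM+ libraries and did not pass (log2 difference -1.60, adjusted p = 0.0725). It passed as lower without the neratinib library 6A_53178_N_caf (adjusted p = 0.04) or the vehicle library 3A_53185_V_caf (adjusted p = 0.00543).

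The beta chains that pair with alphav were divided between the populations. Itgb6 (ENSMUSG00000026971), the beta6 chain of the epithelial receptor that activates latent TGF-beta, ranged from 0 to 1.58 CPM (median 0.177) in PDPN+ libraries, against 68.5 to 161 CPM (median 109) in EpCAM+ libraries. The groups did not overlap (log2 difference -7.79, SE 0.77, edgeR adjusted p = 1.44e-07), and the 2 highest PDPN+ values were those of 8A_53184_N_caf (neratinib) and 2A_53179_V_caf (vehicle). In those 2 libraries the 9 epithelial marker genes summed to 994.5 and 1108 TPM. They summed to more in 7A_53180_N_caf (1159 TPM) and 1A_53175_V_caf (1203 TPM), where Itgb6 was at 0.118 and 0 CPM. In PDPN+ libraries 5 of the 9 genes had a median under 1 TPM. Krt19 of this list is also in the mesothelial list, so the sum does not measure tumour epithelium alone. The part of epithelial RNA in the Itgb6 values was not tested. Itgb5 (ENSMUSG00000022817), the beta5 chain of a vitronectin receptor, ranged from 42.8 to 149 CPM (median 95.1) in PDPN+ libraries, against 8.56 to 17.0 CPM (median 13.8) in EpCAM+ libraries. All 8 PDPN+ libraries lay above all 11 EpCAM+ libraries (log2 difference 2.76, SE 0.26, edgeR adjusted p = 7.14e-08). Itgb8, the beta8 chain of another receptor for latent TGF-beta, ranged from 0 to 54.7 CPM (median 23.6) in PDPN+ libraries, against 0.229 to 1.07 CPM (median 0.850) in EpCAM+ libraries. It was higher in PDPN+ cells (log2 difference 4.73), but 3 PDPN+ libraries, 7A_53180_N_caf, 1A_53175_V_caf and 4A_53188_V_caf, were at 0.0882, 0.158 and 0 CPM, and with the mouse number as a block it did not pass (adjusted p = 0.262). Itgb3, the beta3 chain of the vitronectin receptor of platelets, endothelium and osteoclasts, ranged from 0.253 to 52.6 CPM (median 14.2) in PDPN+ libraries, against 1.12 to 39.6 CPM (median 7.07) in EpCAM+ libraries, and did not pass (log2 difference 0.47, turning to -0.18 with limma on log2(TPM + 0.1)).

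The promoters of Itgb5 and Itgb6 are shown as the pair of beta chains with the clearest opposite calls. They are RefSeq windows of GRCm38.p6 from 250 bases before to 50 bases after the gene start, Itgb5 at chr16:33829415-33829714, plus strand, and the upstream of 2 listed starts of Itgb6 at chr2:60722554-60722853, minus strand. Capitals mark the GC box GGGCGG, searched on both strands with overlaps allowed:
Itgb5 promoter: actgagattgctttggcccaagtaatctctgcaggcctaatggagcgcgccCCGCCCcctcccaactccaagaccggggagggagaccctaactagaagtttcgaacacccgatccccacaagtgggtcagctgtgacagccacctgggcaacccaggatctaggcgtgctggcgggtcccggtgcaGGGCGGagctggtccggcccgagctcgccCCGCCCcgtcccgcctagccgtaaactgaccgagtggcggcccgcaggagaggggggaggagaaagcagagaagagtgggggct
Itgb6 promoter: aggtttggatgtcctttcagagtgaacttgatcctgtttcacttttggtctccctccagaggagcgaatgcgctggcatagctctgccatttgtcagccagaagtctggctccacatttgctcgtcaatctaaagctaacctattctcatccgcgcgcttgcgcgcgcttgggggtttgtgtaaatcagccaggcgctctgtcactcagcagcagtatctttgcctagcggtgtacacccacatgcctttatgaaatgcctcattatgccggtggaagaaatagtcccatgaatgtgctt
The Itgb5 window was 65.7% GC with 20 CpG dinucleotides and 3 GC boxes, and the Itgb6 window was 50.3% GC with 12 CpG dinucleotides and held no match to these letters. The median over 32851 mouse promoter windows was 52.67% GC and 7 CpG dinucleotides, and 35.7% of them held a GC box.

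Itgb4 (ENSMUSG00000020758), the beta4 chain of hemidesmosomes, ranged from 1.10 to 32.2 CPM (median 12.7) in PDPN+ libraries, against 40.9 to 211 CPM (median 178) in EpCAM+ libraries, and was lower in every PDPN+ library (log2 difference -3.40, SE 0.56, edgeR adjusted p = 5.51e-05). Its partner Itga6 was lower too, as given above. Itgb1 (ENSMUSG00000025809), the common beta1 chain, ranged from 141 to 379.9 CPM (median 249) in PDPN+ libraries, against 108 to 454 CPM (median 188) in EpCAM+ libraries, and did not pass (log2 difference 0.11, SE 0.30, edgeR adjusted p = 0.79). Its direction turned with limma on log2(TPM + 1) (-0.23), and without the 3 EpCAM+ libraries that stood apart it passed as higher (0.64, adjusted p = 0.0285). The leukocyte chains were low in both populations. Itgb2, the beta2 chain of leukocyte receptors, ranged from 0 to 2.62 CPM (median 0.0281) in PDPN+ libraries, against 0.977 to 8.52 CPM (median 2.81) in EpCAM+ libraries. Its difference of -2.74 missed the threshold (edgeR adjusted p = 0.0512). Itgb2 passed without the neratinib library 8A_53184_N_caf (edgeR adjusted p = 0.00494) or without the vehicle library 3A_53185_V_caf (edgeR adjusted p = 9.89e-04). In these 2 libraries the leukocyte markers summed to 1884 and 1479 TPM, against 761 to 3062 TPM over all PDPN+ libraries. Their part in the Itgb2 values was not tested. Itgb7, the beta7 chain of gut-homing lymphocytes, ranged from 0 to 11.1 CPM (median 0) in PDPN+ libraries, against 0.342 to 1.13 CPM (median 0.488) in EpCAM+ libraries. The single high PDPN+ value was that of the neratinib library 6A_53178_N_caf. The lymphatic endothelial markers summed to 900.5 TPM there, nearly all of it from Ccl21a at 894 TPM, with Prox1 at 3.80 TPM. Ptprc and Cd3e were at 0 there, but the leukocyte markers as a list were not. Their sum lay near the low end of the 761 to 3062 TPM over all PDPN+ libraries. The part of either list in the Itgb7 value was not tested. Without that library Itgb7 passed as lower in PDPN+ cells (log2 difference -4.86, adjusted p = 7.05e-05).

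The kindlins, which bind beta tails beside talin, were divided between the populations. Fermt1 (ENSMUSG00000027356), kindlin-1 of epithelium, ranged from 0 to 6.30 CPM (median 0.0328) in PDPN+ libraries, against 139 to 294 CPM (median 181) in EpCAM+ libraries. It was lower in every PDPN+ library and had the largest absolute difference of all members (log2 difference -9.74, SE 0.99, edgeR adjusted p = 2.26e-07). Its highest PDPN+ value was that of the vehicle library 2A_53179_V_caf, at 6.30 CPM, while the other 7 libraries were at or under 0.203 CPM. Fermt2 (ENSMUSG00000037712), kindlin-2 of mesenchymal and many other cells, ranged from 149 to 348 CPM (median 192) in PDPN+ libraries, against 2.19 to 11.7 CPM (median 9.06) in EpCAM+ libraries. It was higher in every PDPN+ library and had the smallest p of the members (log2 difference 4.75, SE 0.28, edgeR adjusted p = 2.14e-10). Without the 3 EpCAM+ libraries that stood apart the differences were -9.56 for Fermt1 and 4.73 for Fermt2.

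The kindlin promoters are shown for the same reason, from the same RefSeq table, Fermt2 at chr14:45530016-45530315, minus strand, and Fermt1 at chr2:132945987-132946286, minus strand, with GC boxes in capitals:
Fermt2 promoter: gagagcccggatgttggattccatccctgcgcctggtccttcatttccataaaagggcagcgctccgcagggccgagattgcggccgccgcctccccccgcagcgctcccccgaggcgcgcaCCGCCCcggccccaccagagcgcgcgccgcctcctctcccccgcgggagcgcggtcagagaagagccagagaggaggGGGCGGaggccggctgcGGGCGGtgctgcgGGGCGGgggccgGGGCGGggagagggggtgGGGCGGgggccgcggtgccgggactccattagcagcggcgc
Fermt1 promoter: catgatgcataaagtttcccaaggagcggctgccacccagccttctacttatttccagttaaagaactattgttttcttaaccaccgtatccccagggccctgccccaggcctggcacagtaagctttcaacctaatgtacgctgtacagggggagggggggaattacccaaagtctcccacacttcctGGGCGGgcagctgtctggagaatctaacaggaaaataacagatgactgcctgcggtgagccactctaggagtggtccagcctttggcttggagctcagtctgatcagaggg
The Fermt2 window was 76.7% GC with 37 CpG dinucleotides and 6 GC boxes, and 97.3% of all windows had a lower GC content. The Fermt1 window was 53.0% GC with 5 CpG dinucleotides and 1 GC box. Of the 36 members 26 had a window in the table, 32 windows in all, and 19 of these held a GC box. Itga6, Itga7, Itgb2, Itgb3, Itgb4, Tln2, Parva, Lims2, Ptk2 and Pxn had none.

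The talins link beta tails to actin. Tln2 (ENSMUSG00000052698), talin-2, ranged from 21.1 to 87.7 CPM (median 52.4) in PDPN+ libraries, against 2.15 to 8.64 CPM (median 3.75) in EpCAM+ libraries, and was higher in every PDPN+ library (log2 difference 3.56, SE 0.32, edgeR adjusted p = 3.38e-08). Tln1, the talin found in nearly all cells, ranged from 83.4 to 312 CPM (median 118) in PDPN+ libraries, against 26.7 to 187 CPM (median 143) in EpCAM+ libraries, and did not pass (log2 difference 0.30). Its direction turned without the 3 EpCAM+ libraries that stood apart (-0.04) and without the 2 PDPN+ vehicle libraries (-0.08), and with transcript-length offsets it passed as higher (1.02, edgeR adjusted p = 0.0122). Of vinculin, the actin-binding partner of talin, Vcl ranged from 5.40 to 197 CPM (median 51.2) in PDPN+ libraries, against 73.2 to 275 CPM (median 179) in EpCAM+ libraries. It was lower (log2 difference -1.43, SE 0.52, edgeR adjusted p = 0.0286), and without the 2 PDPN+ vehicle libraries its adjusted p was 0.0511.

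Within the complex of integrin-linked kinase, PINCH and parvin, which binds kindlin and actin, 2 of the 5 members were higher, 1 was lower and 2 did not pass. Ilk, integrin-linked kinase, ranged from 151 to 293 CPM (median 186) in PDPN+ libraries, against 134 to 192 CPM (median 147) in EpCAM+ libraries, and passed as higher by a small margin (log2 difference 0.38, adjusted p = 0.0345). This call was kept in 8 of 32 alternatives, lost in 22 and turned in direction in 2, with limma on log2(TPM + 1) (-0.16) and on log2(TPM + 0.1) (-0.16). Lims1, PINCH-1, ranged from 75.1 to 196 CPM (median 125) in PDPN+ libraries, against 55.6 to 89.5 CPM (median 71.5) in EpCAM+ libraries, and was higher (log2 difference 0.80, adjusted p = 2.01e-04), though not on log2(TPM + 1) (0.20, adjusted p = 0.257). Parva, alpha-parvin, ranged from 106 to 214 CPM (median 167) in PDPN+ libraries, against 85.7 to 158 CPM (median 145) in EpCAM+ libraries, and did not pass (log2 difference 0.30, and -0.40 on log2(TPM + 1)). The beta-parvin gene Parvb (ENSMUSG00000022438) ranged from 0.0444 to 4.23 CPM (median 0.210) in PDPN+ libraries, against 1.69 to 24.8 CPM (median 9.85) in EpCAM+ libraries. It had the largest difference of the complex (log2 difference -3.04, SE 0.92, edgeR adjusted p = 0.00981), and did not pass with transcript-length offsets (adjusted p = 0.0995). Lims2, PINCH-2, ranged from 0.0339 to 32.6 CPM (median 11.0) in PDPN+ libraries, against 7.02 to 14.3 CPM (median 11.2) in EpCAM+ libraries, and did not pass (log2 difference 0.37, and -0.08 without the 2 PDPN+ vehicle libraries).

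Of focal adhesion kinase and the scaffolds Bcar1 and Pxn, only Bcar1 passed. Bcar1 (ENSMUSG00000031955), the scaffold p130Cas, ranged from 1.08 to 84.6 CPM (median 21.4) in PDPN+ libraries, against 28.9 to 176 CPM (median 146) in EpCAM+ libraries, and was lower (log2 difference -2.30, SE 0.65, edgeR adjusted p = 0.00649), though not in vehicle libraries only (-1.70, adjusted p = 0.175). Pxn, paxillin, ranged from 22.2 to 115 CPM (median 40.1) in PDPN+ libraries, against 15.3 to 194 CPM (median 141) in EpCAM+ libraries. Its difference of -1.21 missed the threshold (adjusted p = 0.053). Without the 3 EpCAM+ libraries that stood apart it was -1.59 and passed (adjusted p = 6.23e-04). It also passed without the 2 PDPN+ vehicle libraries (-1.53, adjusted p = 0.0423), and without any 1 of 6A_53178_N_caf, 1A_53175_V_caf, 7B_53178_N_epi, 1B_53175_V_epi and 2B_53176_V_epi (adjusted p from 0.0162 to 0.0342). Ptk2, focal adhesion kinase, ranged from 22.1 to 84.7 CPM (median 39.7) in PDPN+ libraries, against 39.6 to 60.4 CPM (median 49.4) in EpCAM+ libraries, and did not pass (log2 difference -0.22, turning to 0.22 with transcript-length offsets). Zyx, zyxin of mature adhesions and stress fibres, ranged from 16.8 to 143 CPM (median 77.8) in PDPN+ libraries, against 11.3 to 48.3 CPM (median 20.9) in EpCAM+ libraries, and was higher (log2 difference 1.65, SE 0.35, edgeR adjusted p = 6.97e-04), but not on log2(TPM + 1) (adjusted p = 0.0678).

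The tensins bind integrin tails in fibrillar adhesions. Tns1, tensin-1, ranged from 29.0 to 152 CPM (median 59.8) in PDPN+ libraries, against 8.65 to 60.3 CPM (median 42.4) in EpCAM+ libraries, and stood just past the threshold (log2 difference 0.84, SE 0.34, edgeR adjusted p = 0.0475). The call was lost in 24 of 32 alternatives, among them without the 3 EpCAM+ libraries that stood apart (0.55, adjusted p = 0.0867) and in vehicle libraries only (0.32, adjusted p = 0.673). Tns3, tensin-3, ranged from 1.93 to 76.8 CPM (median 32.6) in PDPN+ libraries, against 6.31 to 97.9 CPM (median 72.3) in EpCAM+ libraries, and did not pass (log2 difference -0.75). It passed as lower in 3 alternatives, with limma on log2(TPM + 1) (-1.29, adjusted p = 0.0161) and on log2(TPM + 0.1) (-1.58, adjusted p = 0.0267), and with the mouse number as a block (-1.08, edgeR adjusted p = 0.0384). Of the 24 called members, 12 kept their call and direction in every alternative fitted for them: Itga10, Itga11, Itga5, Itga9, Itgav, Itgb5, Tln2 and Fermt2 upward, and Itga2, Itgb4, Itgb6 and Fermt1 downward. Of the other 12, Itga1, Itga6, Vcl, Parvb, Bcar1, Zyx, Ilk and Tns1 lost their call in vehicle libraries only, and Itga1, Itga3, Itga6, Itga7, Vcl, Parvb and Ilk in neratinib libraries only, fits with fewer libraries. Itgb8 lost its call in both fits with the mouse number, and Lims1 with limma on both TPM scales. Of the members that did not pass, Pxn passed as lower in 13 alternatives, Itgb2 in 10, Itga4 in 7 and Itgb7 in 5. DESeq2 was among those in which Pxn (adjusted p = 0.0261), Itgb2 (adjusted p = 0.0073) and Itga4 (adjusted p = 0.0142) passed.

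**Figure D3:**
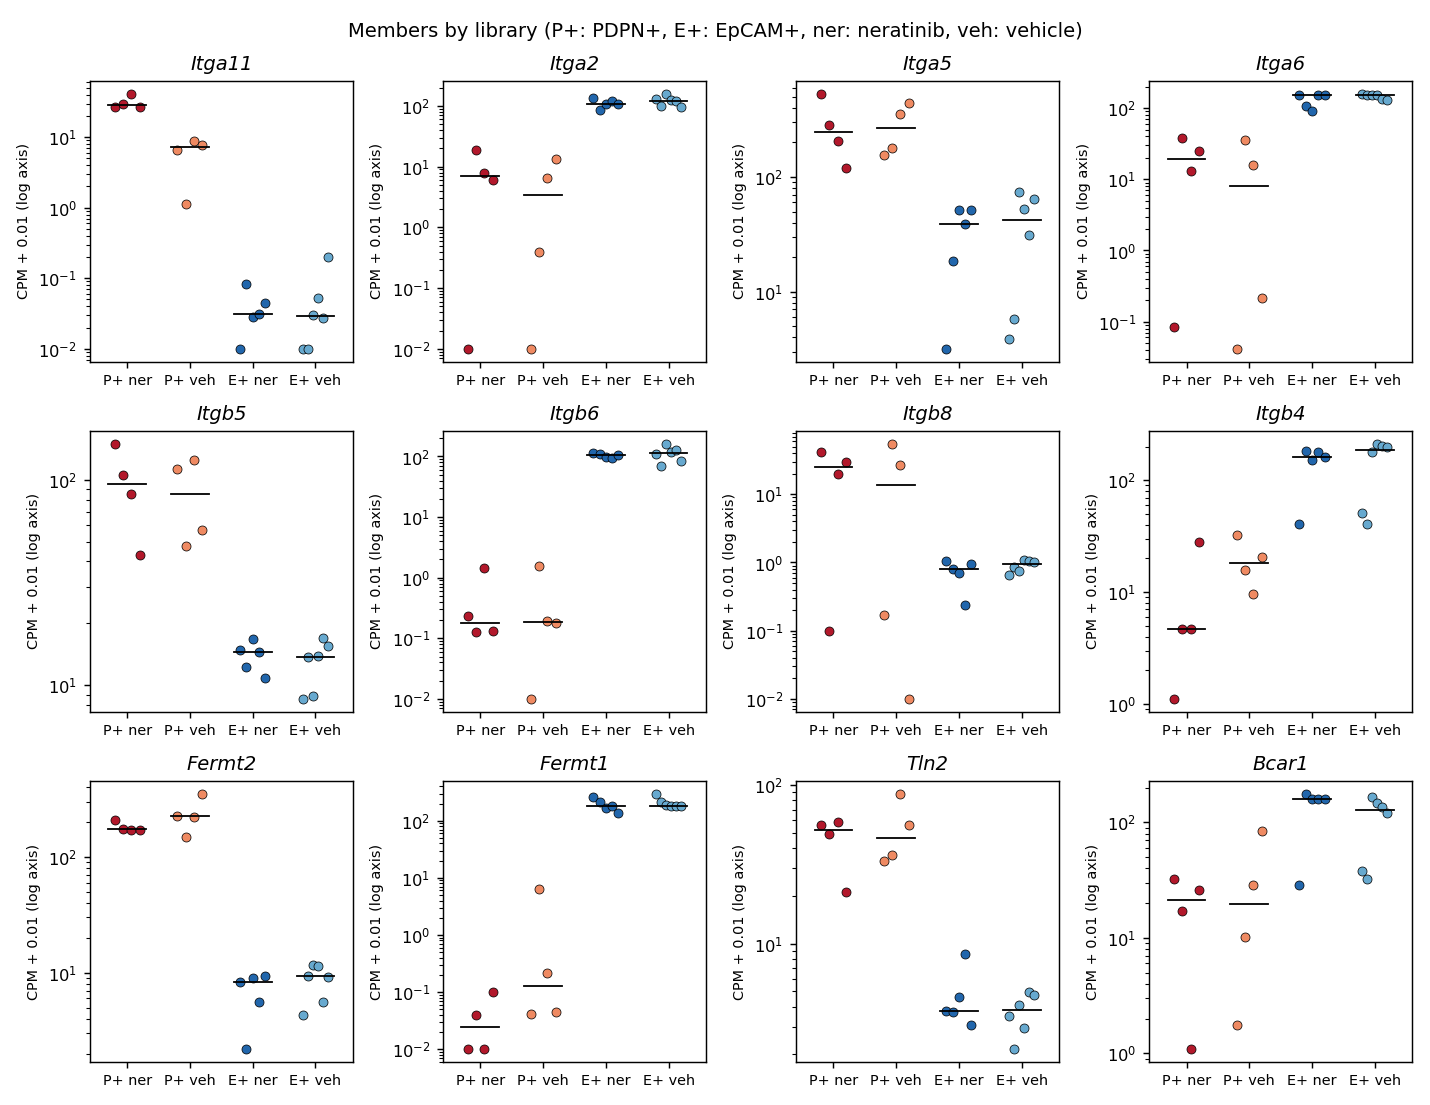
CPM + 0.01 on a log axis for 12 members, by group, with 1 point per library and a line at the median. Itga11, Itga5, Itgb5, Fermt2 and Tln2 lie higher in all 8 PDPN+ libraries, Itga2, Itga6, Itgb6, Itgb4 and Fermt1 in all 11 EpCAM+ libraries, and in EpCAM+ cells Itgb4 and Bcar1 each show 3 low libraries.

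Levels of different genes were set side by side per length, in TPM, as medians with ranges over libraries. In PDPN+ cells the most abundant alpha chains were Itgav at 83.0 TPM (47.1 to 116) and Itga5 at 67.3 TPM (35.3 to 119.9), whose ranges overlapped, and the next was Itga7 at 13.8 TPM (0.00749 to 20.8). In EpCAM+ cells the order was Itga2 at 89.5 TPM (55.5 to 117), Itga6 at 70.6 TPM (45.3 to 75.7), Itgav at 32.5 TPM (20.5 to 49.2) and Itga3 at 32.2 TPM (16.3 to 39.2), each overlapping its neighbour, and Itga5 followed at 14.5 TPM (1.11 to 27.3). Among beta chains Itgb5 at 77.1 TPM (42.3 to 182) and Itgb1 at 72.6 TPM (35.3 to 137) led in PDPN+ cells with overlapping ranges, and the other 6 had medians at or under 3.14 TPM. In EpCAM+ cells Itgb1 at 74.7 TPM (44.6 to 173), Itgb6 at 51.5 TPM (30.4 to 77.8) and Itgb4 at 49.4 TPM (10.6 to 61.2) overlapped, and Itgb5 stood at 9.06 TPM (5.04 to 14.7).

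Much of the summed TPM of several members came from annotated transcripts of under 1000 bases, so the orders were also read without these. Itga2-202 of 480 bases, Itgav-205 of 463 bases, Itgb5-206 of 297 bases and Fermt2-205 of 331 bases are such fragments. With longer transcripts only, the medians in PDPN+ cells were 61.1 TPM for Itga5, 19.4 for Itgav and 1.55 for Itga7, and 61.1 for Itgb1 and 35.5 for Itgb5, so Itga5 stood above Itgav and Itgb1 above Itgb5. In EpCAM+ cells they were 68.6 TPM for Itga6, 31.6 for Itga3, 19.9 for Itga2 and 10.6 for Itgav, so Itga2 was no longer first. Fermt1 in EpCAM+ cells was at 199.8 TPM (129 to 237) with all and at 50.4 TPM with longer transcripts, and Fermt2 in PDPN+ cells at 183 TPM (127 to 354) with all and at 44.8 TPM. Ilk led the adaptors in both populations when only longer transcripts were counted, at 128 TPM in PDPN+ and 140.3 TPM in EpCAM+ cells. In the other paralogue pairs and both populations, Tln1 had a higher median than Tln2, Parva than Parvb and Lims1 than Lims2 in either reading, while Tns1 stood above Tns3 in PDPN+ and below it in EpCAM+ cells.

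Genes around the members were counted from lists chosen by function. Of 56 other adhesome genes 16 were higher and 21 lower in PDPN+ cells and 19 did not pass (median log2 difference -0.17). The largest differences were those of Ddr2, a receptor tyrosine kinase for collagen (8.22), Lpxn, the paxillin relative leupaxin (-7.56), and Tns4, a tensin that lacks the actin-binding part (-7.13). Of 36 integrin ligand genes 35 were tested, 23 higher and 8 lower (median 2.13), led by Cdh1, E-cadherin, a ligand of the beta7 receptor of lymphocytes (-9.61), the collagen I gene Col1a2 (9.61) and the fibrillin gene Fbn1 (9.25). Of 9 hemidesmosome genes 1 was higher, 4 lower and 4 did not pass (median -3.09), led by the laminin-332 genes Lamb3 (-8.27) and Lama3 (-6.15) and the keratin gene Krt5 (-6.57). Lamb3 and Lama3 are also in the ligand list. Of 6 leukocyte and platelet alpha chains 5 were tested, 1 higher and 2 lower: Itga2b, the alphaIIb chain of platelets, was higher (3.59), and Itgal, the alphaL chain (-6.59), and Itgae, the alphaE chain (-2.95), were lower. Itga2b stood at 8.29 to 38.4 TPM in PDPN+ and 0.0996 to 3.77 TPM in EpCAM+ libraries, and the platelet markers Gp1ba and Gp9 were at 0 in 7 of 8 PDPN+ libraries. Of the other platelet markers, Pf4 stood at 0 to 23.3 TPM in PDPN+ libraries, against 2.51 to 9.24 TPM in EpCAM+ libraries, and did not pass (0.14). Ppbp stood at 0 to 27.5 TPM in PDPN+ libraries, against 107 to 429 TPM in EpCAM+ libraries, and was lower (-4.96). Markers of other cells were called as follows in PDPN+ cells: 3 of 11 leukocyte, 4 of 8 blood endothelial, 3 of 4 lymphatic endothelial, 5 of 8 pericyte and smooth muscle and 6 of 8 mesothelial genes tested were called higher, and 1 mesothelial and 3 of 5 platelet genes lower. Their part in the differences of the members was not tested.

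Transcript shares within members also differed between the populations. A share is the TPM of a transcript over the summed TPM of its gene, and 13 members with at least 1 TPM in every library gave 26 transcripts to test. Of these 12, from 7 members, differed by the exact two-sided permutation test over 8 PDPN+ and 11 EpCAM+ libraries with adjusted p under 0.05, where 35.8% of all 10543 transcripts tested did. The largest shift was in Itgb5, where the fragment Itgb5-206 held 55.9 ± 11.3% in PDPN+ and 5.60 ± 10.2% in EpCAM+ libraries (SD, n = 8 and 11, exact permutation adjusted p = 2.44e-04). The coding transcript Itgb5-207 held 32.3 ± 9.79% in PDPN+ and 63.7 ± 9.68% in EpCAM+ libraries, and Itgb5-202 held 11.2 ± 12.2% in PDPN+ and 29.9 ± 7.22% in EpCAM+ libraries. In Fermt2 the fragment Fermt2-205 held 35.5 ± 2.66% in PDPN+ and 11.4 ± 19.7% in EpCAM+ libraries, and Fermt2-201 of 3293 bases 22.8 ± 8.46% in PDPN+ and 49.3 ± 21.1% in EpCAM+ libraries. Fermt2-205 was at 0 in 8 EpCAM+ libraries and at 37.3 to 47.6% in the vehicle libraries 3B_53179_V_epi, 4B_53185_V_epi and 6B_53192_V_epi. In Parva, Parva-201 held 84.3 ± 18.7% in PDPN+ and 64.6 ± 7.07% in EpCAM+ libraries, and Parva-203 4.46 ± 12.4% in PDPN+ and 23.6 ± 7.56% in EpCAM+ libraries, where the PDPN+ mean came almost wholly from the vehicle library 4A_53188_V_caf (35.1%). The other called transcripts were Itgav-202, Itgav-205, Lims1-203, Pxn-201 and Zyx-207. Shares of estimated counts gave 7 calls in place of 12, vehicle libraries alone 2, and under count shares Itgb5-207 and Itgav-202 turned direction.

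**Figure D4:**
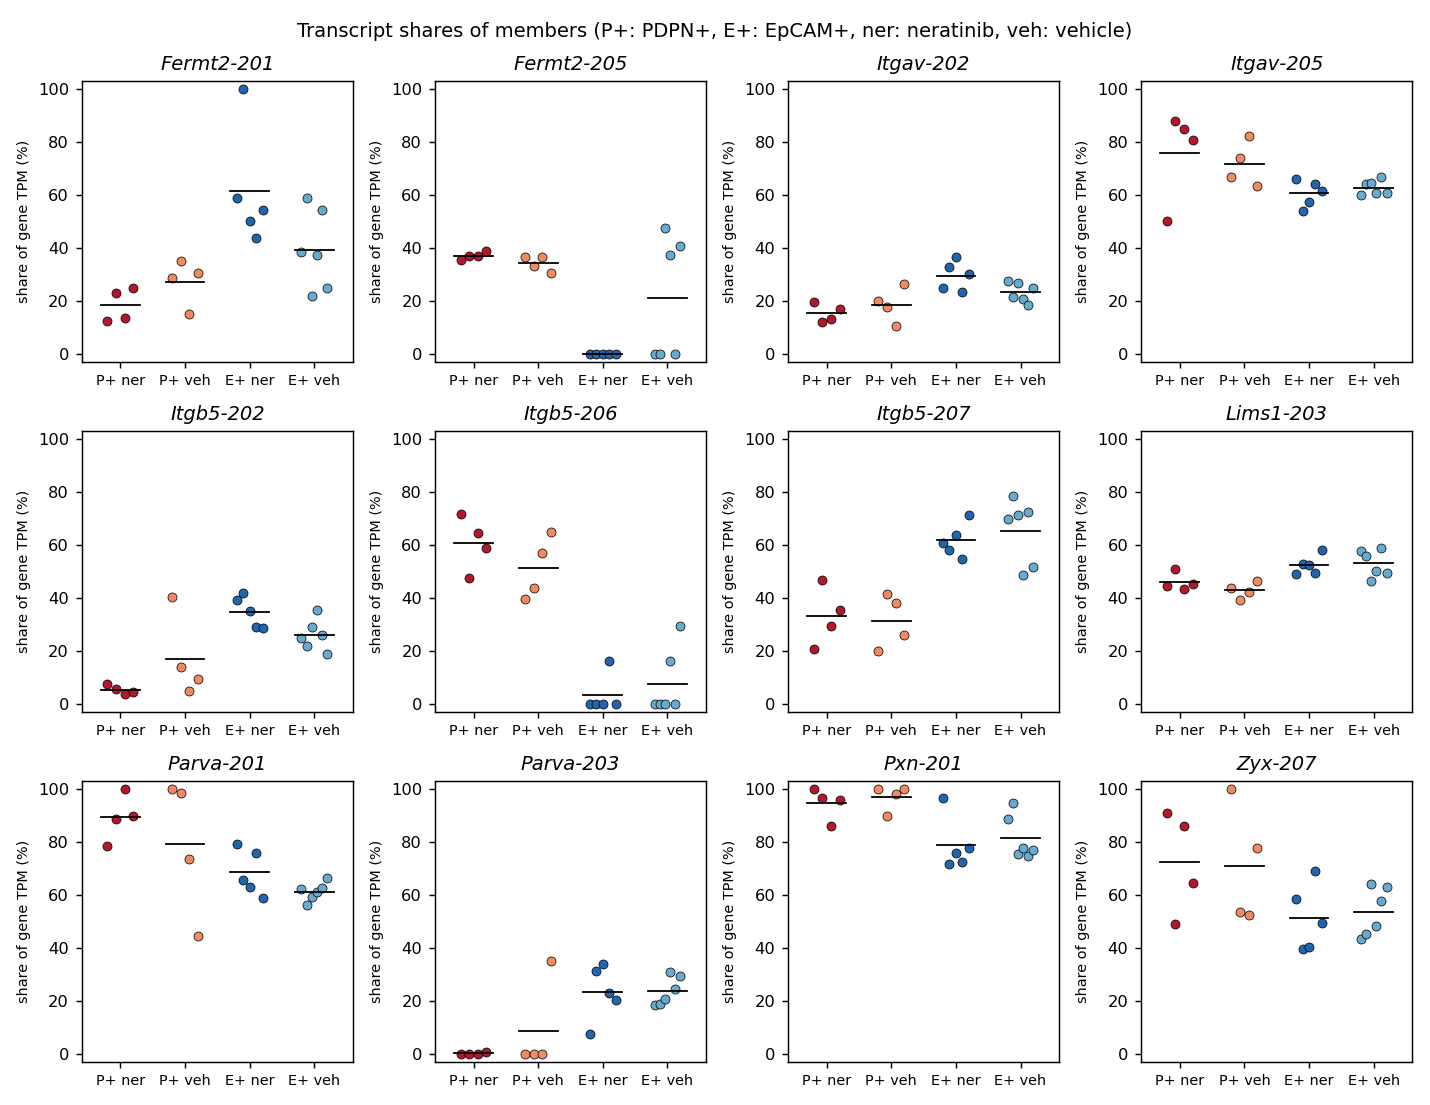
Share of the summed gene TPM held by each of the 12 called transcripts, in percent, by group, with 1 point per library and a line at the mean. Itgb5-206 lies at 39.6 to 71.6% in the 8 PDPN+ libraries, above every EpCAM+ library (0 to 29.3%), and Fermt2-205 is at 0 in all 5 EpCAM+ neratinib libraries.

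To examine what neratinib did to the adhesion genes of CAFs, the PDPN+ libraries of 4 neratinib mice were set against those of 4 vehicle mice. Of 29 members tested 0 passed, and 0.00% of the 14437 genes tested were called, with 331 genes (2.29%) and 2 members, Itga11 and Tns1, at an unadjusted edgeR p under 0.05. DESeq2 called 13 genes and the fit of all 19 libraries 111 genes, and no member in either. The median log2 difference of the members was 0.08, against 0.06 over all genes.

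The 6 members with the smallest unadjusted p were these. Itga11, the collagen receptor chain, stood at 27.0, 29.8, 41.2 and 26.4 CPM in the 4 PDPN+ neratinib libraries, against 6.63, 1.13, 8.91 and 7.77 CPM in the 4 PDPN+ vehicle libraries. The groups did not overlap, as was the case for no other member of the 29 and for 2.29% of all genes tested, 1.18% with neratinib higher (log2 difference 2.34, SE 0.85, unadjusted p = 0.019, adjusted p = 1, edgeR). Over all alternatives its adjusted p ran from 0.195 to 1, and without the 2 PDPN+ vehicle libraries that stood apart the difference was 2.61. Tns1, tensin-1, stood at 152, 102, 77.0 and 51.0 CPM in the 4 PDPN+ neratinib libraries, against 29.0, 38.05, 68.6 and 42.7 CPM in the 4 PDPN+ vehicle libraries. The neratinib library 9A_53194_N_caf lay within the vehicle range and the other 3 above it (log2 difference 1.09, SE 0.44, unadjusted p = 0.0323, adjusted p = 1, edgeR). Itgb3, the beta3 chain, stood at 52.6, 18.8, 40.9 and 9.50 CPM in the 4 PDPN+ neratinib libraries, against 0.253, 8.74, 23.2 and 0.441 CPM in the 4 PDPN+ vehicle libraries. The 2 vehicle libraries that stood apart were the lowest, at 0.253 and 0.441 CPM (log2 difference 1.91, SE 1.30, unadjusted p = 0.17, adjusted p = 1, edgeR). Without these 2 libraries the Itgb3 difference was 0.88.

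Fermt2, kindlin-2, stood at 210.1, 175, 172 and 171 CPM in the 4 PDPN+ neratinib libraries, against 224, 149, 223 and 348 CPM in the 4 PDPN+ vehicle libraries, with overlap (log2 difference -0.39, SE 0.29, unadjusted p = 0.208, adjusted p = 1, edgeR). Itgb1, the common beta chain, stood at 141, 155, 254 and 311 CPM in the 4 PDPN+ neratinib libraries, against 244, 187, 379.9 and 324 CPM in the 4 PDPN+ vehicle libraries, also with overlap (log2 difference -0.40, SE 0.33, unadjusted p = 0.253, adjusted p = 1, edgeR). Zyx, zyxin, stood at 83.4, 79.0, 76.6 and 141 CPM in the 4 PDPN+ neratinib libraries, against 16.8, 30.9, 143 and 44.9 CPM in the 4 PDPN+ vehicle libraries, where the vehicle library 3A_53185_V_caf had the highest value of all 8 (log2 difference 0.70, SE 0.60, unadjusted p = 0.263, adjusted p = 1, edgeR). The fibronectin receptor chain Itga5 had a difference of -0.00405 (SE 0.47) and Itgav one of -0.08 (SE 0.32). Marker sums of the same libraries overlapped between treatments. Lymphatic endothelial markers summed to 0.679 to 900.5 TPM in PDPN+ neratinib and 1.38 to 12.2 TPM in PDPN+ vehicle libraries, and the highest was that of 6A_53178_N_caf. Pericyte and smooth muscle markers summed to 40.6 to 98.1 TPM in neratinib and 43.9 to 110.5 TPM in vehicle libraries, and fibroblast markers to 12330 to 14570 TPM in neratinib and 10680 to 16490 TPM in vehicle libraries. Their part in the differences was not tested. Of 33 integrin ligand genes tested 0 passed and 23 had positive differences (median 0.31), and of 53 other adhesome genes 0 passed and 24 were positive (median -0.15). Itga2b, chosen here after its values were seen, stood at 28.1, 38.4, 15.8 and 17.0 TPM in PDPN+ neratinib libraries and at 10.1, 10.8, 18.4 and 8.29 TPM in PDPN+ vehicle libraries (edgeR quasi-likelihood test, unadjusted p = 0.0404, adjusted p = 1.00).

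**Figure D5:**
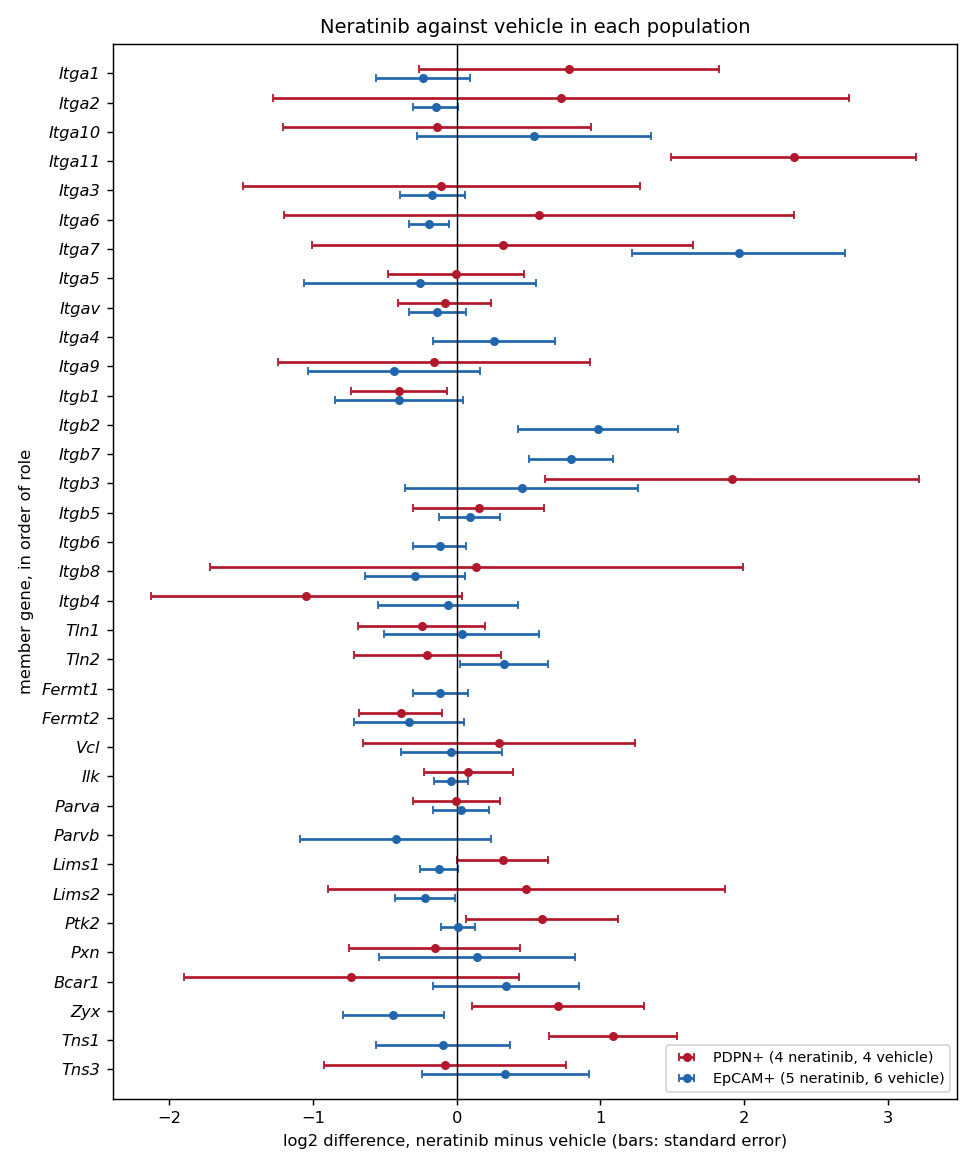
Log2 difference of neratinib minus vehicle for each tested member with its standard error, in PDPN+ cells (red, 29 members) and EpCAM+ cells (blue, 34 members). No member passed in either population, and the largest difference is that of Itga11 in PDPN+ cells (2.34).

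In the tumour epithelium libraries of 5 neratinib mice were set against those of 6 vehicle mice. Of 34 members tested 0 passed, and 0.00% of the 17200 genes tested were called, with 524 genes (3.05%) and 2 members, Itgb7 and Itga7, at an unadjusted edgeR p under 0.05. DESeq2 called 8 genes and no member. The median log2 difference of the members was -0.08, against 0.00 over all genes, and the groups overlapped for all 34, where they did not for 0.221% of all genes (0.140% higher, 0.0814% lower). Itgb7, the beta7 chain, stood at 0.820, 1.13, 0.885, 0.479 and 0.494 CPM in the 5 EpCAM+ neratinib libraries, against 0.342 to 0.498 (median 0.451) CPM in the 6 EpCAM+ vehicle libraries (log2 difference 0.80, SE 0.29, unadjusted p = 0.0182, adjusted p = 0.999, edgeR). With transcript-length offsets its direction turned (-0.14). Itga7, the alpha7 chain, stood at 0.305, 3.22, 2.62, 5.98 and 8.24 CPM in the 5 EpCAM+ neratinib libraries, against 0.226 to 2.57 (median 0.907) CPM in the 6 EpCAM+ vehicle libraries (log2 difference 1.96, SE 0.74, unadjusted p = 0.0219, adjusted p = 0.999, edgeR). The neratinib library 7B_53178_N_epi was the low exception. It is among the 3 EpCAM+ libraries that stood apart. The others of these, the vehicle libraries 1B_53175_V_epi and 2B_53176_V_epi, were low too, at 0.226 and 0.362 CPM. Itgb2, the beta2 chain, stood at 4.71, 1.06, 7.82, 2.54 and 8.52 CPM in the 5 EpCAM+ neratinib libraries, against 0.977 to 4.96 (median 2.29) CPM in the 6 EpCAM+ vehicle libraries (log2 difference 0.98, SE 0.55, unadjusted p = 0.102, adjusted p = 0.999, edgeR), and leukocyte markers summed to 267 to 649.7 TPM in EpCAM+ neratinib and 321 to 455 TPM in EpCAM+ vehicle libraries, whose part in this was not tested.

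The remaining members by smallest p were Itga6, Zyx and Tln2. Itga6, the alpha6 chain, stood at 153, 108, 92.0, 151 and 151 CPM in the 5 EpCAM+ neratinib libraries, against 129 to 159 (median 153) CPM in the 6 EpCAM+ vehicle libraries (log2 difference -0.19, SE 0.14, unadjusted p = 0.193, adjusted p = 0.999, edgeR). Zyx stood at 30.6, 20.9, 25.8, 11.3 and 14.6 CPM in the 5 EpCAM+ neratinib libraries, against 16.6 to 48.3 (median 25.0) CPM in the 6 EpCAM+ vehicle libraries (log2 difference -0.44, SE 0.35, unadjusted p = 0.236, adjusted p = 0.999, edgeR). Tln2 stood at 3.75, 3.69, 4.61, 8.64 and 3.07 CPM in the 5 EpCAM+ neratinib libraries, against 2.15 to 4.96 (median 3.79) CPM in the 6 EpCAM+ vehicle libraries (log2 difference 0.33, SE 0.31, unadjusted p = 0.307, adjusted p = 0.999, edgeR), and turned to -0.24 with limma on log2(TPM + 1). All 3 overlapped between treatments. Of the members called lower in PDPN+ cells, 4 with non-overlapping populations had these differences between treatments: -0.12 for Itgb6 (SE 0.19), -0.11 for Fermt1 (SE 0.19), -0.15 for Itga2 (SE 0.16) and -0.06 for Itgb4 (SE 0.49). Of 9 hemidesmosome genes 0 passed and 5 were positive, of 32 integrin ligand genes 0 passed and 13 were positive, and of 54 other adhesome genes 0 passed and 21 were positive.

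Whether the effect of neratinib differed between CAFs and epithelium was tested as an interaction over all 19 libraries, the effect in PDPN+ minus that in EpCAM+ cells. Of 35 members 0 passed, where 0.0662% of the 19626 genes were called (0.00510% positive and 0.0611% negative), and 2 members had an unadjusted edgeR p under 0.05, where 2190 genes (11.2%) did. DESeq2 called 633 genes and no member. The smallest p was that of Fermt1 (log2 -5.56, SE 1.58, adjusted p = 0.162). Its PDPN+ levels were 0, 0.0294, 0 and 0.0899 CPM with neratinib and 0.0316, 6.30, 0.203 and 0.0339 CPM with vehicle, the one high value being that of the vehicle library 2A_53179_V_caf. Without the 2 PDPN+ vehicle libraries that stood apart Fermt1 passed (-6.54, adjusted p = 0.0037), and this left that library as 1 of 2 PDPN+ vehicle libraries, and without that library its adjusted p was 0.552. Itgb7 was next (log2 6.41, adjusted p = 0.233) and turned to -0.58 without the PDPN+ neratinib library 6A_53178_N_caf. The other 4 of the 6 members with the smallest p were Itga11 (2.88, SE 1.40), Tns1 (1.17, SE 0.69), Zyx (1.11, SE 0.71) and Lims1 (0.44, SE 0.30), with adjusted p from 0.462 to 0.713. The EpCAM+ side of the Itga11 value is near the floor, at 0 to 10 reads per library (median 1), with 3 of 11 libraries at 0. Itga11 was not tested for neratinib within EpCAM+ cells.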

How the data were processed

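RNA-seq libraries were made, per the labels' protocols, from RNA of flow-sorted cells with TRIzol, an RNeasy Micro kit and the NEBNext Single Cell/Low Input kit, where the number of PCR cycles followed the RNA input. The input of each library and the strand setting are not stated in the labels. The submitters' processing notes name Salmon 1.9.0 and the build GRCm39. The deposited files give, per transcript, the authors' estimated counts and TPM as Salmon wrote them, with no filter found. TPM divides by effective length, so short annotated transcripts can hold much TPM from few reads.

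Of 147828 transcripts listed, 137063 matched GENCODE M21 (GRCm38), used for gene names, GC content and lengths, and gave 51707 genes. Unmatched transcripts took 4.07 to 8.96% of reads in PDPN+ and 1.77 to 2.26% in EpCAM+ libraries and were left out. Estimated counts were summed per gene, rounded and tested with edgeR 4.0.16 (R 4.3.3; TMM, filterByExpr, robust quasi-likelihood fit), with Benjamini-Hochberg adjustment over all genes tested and a threshold of 0.05. The population comparison and the interaction used all 19 libraries in 4 groups, and each treatment comparison its own population. Transcript shares, for genes with at least 1 TPM in every library and transcripts with a mean share of at least 10%, were compared by an exact two-sided permutation test, whose smallest p is 1.323e-05. Alternatives used DESeq2 1.42.0, limma 3.58.1, other scalings, filters, pseudocounts of 1 and 0.1 on TPM, blocks and left-out libraries. Python 3.11.15, numpy 2.4.6, pandas 2.3.3, scipy 1.17.1 and matplotlib 3.10.9 were used for tables, permutations and figures. The tests were checked on simulated data with known changes. The counts simulated for edgeR had no libraries that stand apart and no pairing by mouse, so the check does not cover these.

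All 36 members are reported. The 6 with the smallest unadjusted p are given in full in each treatment comparison and in the interaction, and the member with the largest absolute difference in each role in the population comparison, beside the paralogue pairs. From other lists up to 3 genes with the largest difference were named by rule. Krt19, Msln, Nkain4, Ptprc, Cd3e, Prox1, Gp9 and Pf4 were named outside that rule. The members and lists were chosen with earlier results of these data known, so their counts are descriptions.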

Additional observations from a re-analysis of the deposited data

Results flagged for a closer look

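The gap between the highest or lowest library and its nearest neighbour was compared with the range of the group, for each member and group with at least 1 CPM in a library. It passed the 95% critical value of Dixon in 19 of 130 groups. The chance rate of about 1 in 20 holds for independent, normal values. CPM are often skewed and members share libraries, so 19 of 130 cannot be read against that rate. In the PDPN+ neratinib library 8A_53184_N_caf, Itgb2 stood at 1.48 CPM, and at 0 to 0.110 CPM in the others of the group. Itgb6 stood there at 1.43 CPM, and at 0.117 to 0.219 CPM in the others. In the PDPN+ vehicle library 3A_53185_V_caf, Itgb2 stood at 2.62 CPM, and at 0 to 0.0339 CPM in the others of the group. Parvb stood there at 3.06 CPM, and at 0.0444 to 0.237 CPM in the others. In the PDPN+ neratinib library 6A_53178_N_caf, Itgb7 stood at 11.1 CPM, and at 0 to 0.0600 CPM in the others of the group. Fermt2 stood there at 210.1 CPM, and at 171 to 175 CPM in the others. In the EpCAM+ neratinib library 13B_53194_N_epi, Itgb3 stood at 39.6 CPM, and at 3.01 to 13.3 CPM in the others of the group. In the PDPN+ vehicle library 2A_53179_V_caf, Itgb6 stood at 1.57 CPM, and at 0 to 0.184 CPM in the others of the group. Fermt1 stood there at 6.30 CPM, and at 0.0316 to 0.203 CPM in the others. Parva stood there at 106 CPM, and at 169 to 179.6 CPM in the others. In the PDPN+ neratinib library 9A_53194_N_caf, Itgb4 stood at 28.1 CPM, and at 1.10 to 4.67 CPM in the others of the group. Zyx stood there at 141 CPM, and at 76.6 to 83.4 CPM in the others. In the EpCAM+ neratinib library 7B_53178_N_epi, Itgb4 stood at 40.9 CPM, and at 151 to 184 CPM in the others of the group. Tln1 stood there at 26.7 CPM, and at 141 to 156 CPM in the others. Bcar1 stood there at 28.9 CPM, and at 158 to 176 CPM in the others. In the PDPN+ neratinib library 7A_53180_N_caf, Tln1 stood at 212 CPM, and at 106 to 116 CPM in the others of the group. In the EpCAM+ neratinib library 12B_53193_N_epi, Tln2 stood at 8.64 CPM, and at 3.07 to 4.61 CPM in the others of the group. In the EpCAM+ vehicle library 1B_53175_V_epi, Fermt1 stood at 294 CPM, and at 179.6 to 213 CPM in the others of the group. In the PDPN+ vehicle library 1A_53175_V_caf, Pxn stood at 115 CPM, and at 27.3 to 41.9 CPM in the others of the group. No member passed in the interaction, and no member had neratinib libraries wholly above vehicle libraries in 1 population and wholly below in the other.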

How the results depend on the processing

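The count of members called between PDPN+ and EpCAM+ cells was 24 and ran from 17 to 26 over the settings tried, and within 22 to 26 when 1 library was left out. With 1 library left out the called member transcripts numbered 10 to 13, and the members called for neratinib in PDPN+ cells, in EpCAM+ cells and in the interaction stayed at 0 to 0. The share of called members that were higher was 58.3%, and 43.5% on log2(TPM), 41.7% with the mouse number as a block, 48% with a correlation within mouse number, and was 70.6% in neratinib libraries only. The cause was not tested for any change given here.

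Directions that turned in the comparison of the populations were those of members that did not pass, apart from Ilk. With limma voom they were Tln1 (-0.162) and Lims2 (-0.351). On log2(TPM + 1) they were Lims2 (-0.469), Itgb1 (-0.231), Ilk (-0.162) and Parva (-0.399), and on log2(TPM + 0.1) Lims2 (-0.858), Itgb1 (-0.234), Ilk (-0.163), Parva (-0.407) and Itgb3 (-0.178). With transcript-length offsets it was Ptk2 (0.219). Without the PDPN+ vehicle libraries 1A_53175_V_caf and 4A_53188_V_caf they were Tln1 (-0.0765) and Lims2 (-0.0753), and without the 3 EpCAM+ libraries that stood apart Tln1 (-0.0373). In vehicle libraries only it was Itgb3 (-0.179), and in neratinib libraries only Ptk2 (0.0787) and Itgb7 (1.87). Leaving out 1 library gave -0.0807 to 0.314 for Itgb1, -0.267 to 0.956 for Itgb3, -0.361 to 0.492 for Lims2, -0.0477 to 0.366 for Tln1 and, in the interaction, -0.58 to 9.15 for Itgb7. For neratinib in EpCAM+ cells Itgb7 turned with transcript-length offsets (-0.137), and Tln2 with the same (-0.292), on log2(TPM + 1) (-0.237) and on log2(TPM + 0.1) (-0.461). The median difference of all genes moved by -0.395 with voom, -0.537 and -0.811 with the TPM settings and -0.533 with the edgeR block.

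The block rested on 8 mouse numbers present in both populations. Deviations of same-numbered libraries correlated at -0.107 to 0.031. Deviations of different cell populations need not go together within a mouse, so these values cannot tell whether such libraries share a mouse. With the edgeR block 24 members were called, 10 higher and 14 lower, with Ilk, Tns1, Itga7 and Itgb8 no longer called and Itga4, Itgb2, Itgb7 and Tns3 called lower, and Lims2 (-0.377) and Itgb3 (-0.220) turned. With limma voom and a correlation within mouse number 25 were called in the populations and 0 in the interaction, and Lims2 was at -0.785. For transcript shares the sign-flip test over the 8 numbers called 0, where its smallest possible unadjusted p is 0.00781. Both treatment comparisons are between mice, so no block applies to them.

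Without the 2 PDPN+ vehicle libraries 1 member, Fermt1, passed in the interaction. Shares of estimated counts called 7 member transcripts, and Itgav-202 (3.74 percentage points) and Itgb5-207 (4.10) turned, while vehicle libraries only called 2. The digit of the code in the deposited names as a covariate left both treatment counts at 0. Of single values, leaving out 1 library lost 43 calls, of Ilk, Tns1 and the shares of Zyx-207 and Itgav-205, and gave 10, of Pxn, Itga4, Itgb2 and Itgb7. The medians from transcripts of at least 1000 bases, chosen after seeing the data, moved 11 of 72 levels by more than 1 SD. Leaving out the PDPN+ pair does not bear on the EpCAM+ comparison, nor the EpCAM+ libraries on the PDPN+ comparison, so these were not run. Itga4, Itga8, Itgb2, Itgb7 and Fermt1 had medians of 0 to 0.0845 CPM in PDPN+ cells, within the 0.110 CPM that a reading of 0 allows. The part of depth in their results was not tested.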
